A study of Mus musculus with 21 samples.

Results

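RNA sequencing of hematopoietic stem cells (HSCs) on day 6 after a single administration of 5-fluorouracil (5-FU) was compared with that of HSCs on day 6 after a single administration of PBS. The members were the 6 libraries whose titles give 1 round of 5-FU or PBS and day 6, 3 in each group, of 21 libraries in the study. All 6 came from bone marrow HSCs of wild-type mice, C57BL/6 by the study's methods and 10 weeks old. The 5-FU-treated mice received 150 mg/kg intraperitoneally, the PBS-treated mice received the vehicle, and the cells were isolated 5 days later. Each library held 3000 to 3500 sorted HSCs and came from an independent experiment, with cDNA amplified by SMART-Seq v4 and sequenced as single-end reads of 75 bases. By the labels the sort used lineage markers, Sca-1, c-Kit, CD150 and CD48, and the study's methods add Flt3 as a negative marker of HSCs in C57BL/6 mice. For 5-FU-treated mice, c-Kit-dim cells were included and the Mac-1 antibody was left out, so that the wider gate and the drug cannot be told apart in any value given here.

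HSCs sit at the top of the blood hierarchy and are mostly quiescent. 5-FU inhibits thymidylate synthase and is built into RNA and DNA, which kills dividing progenitors, and the HSCs that survive are then drawn into the cell cycle to refill the marrow. A cell that leaves quiescence switches from D-type and E-type cyclins to origin licensing, DNA synthesis, histone supply and mitosis, and meets the cost of a new cell with nucleotides, ribosomes, proteins and energy. A part of the HSC pool is also known to express genes of the megakaryocyte lineage.

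The libraries held between 22184885 and 27771296 counts, and 3 counts, taken as the floor of a library, were between 0.108 and 0.135 CPM. The first principal component held 43.3% of the variance and separated the groups, with scores from 33.8 to 45.0 in 5-FU-treated HSCs and from -40.2 to -35.0 in PBS-treated HSCs. Values below are normalised counts, that is, counts divided by the effective size of the library relative to the mean of the 6, and log2 fold changes are 5-FU over PBS with the standard error (SE) of the fit. The HSC marker Mecom ranged from 10339 to 17622 normalised counts, Slamf1 from 981.8 to 1382 and Procr from 652.6 to 848. Markers of other cells ranged from absent to above the level of Procr. Il7r, Cd3e and Cd8a had 0 counts in all 6 libraries, Mcpt8 and Epx had 0 in 5 of 6, and Csf1r had between 0 and 28.5 normalised counts. Over the 6 libraries, the monocyte gene Lyz2 ranged from 928 to 1162, the B cell gene Cd79b from 897.9 to 1058, the myeloid integrin Itgam from 127.7 to 447.7, Nkg7 of cytotoxic cells from 182.4 to 430.7, the neutrophil gene S100a9 from 22.8 to 827.4 and the stromal chemokine Cxcl12 from 10.78 to 1774. Their part in the results was not tested. These are bulk libraries, so that fewer cells of a type and less RNA per cell cannot be told apart. The 10 genes with the most counts held 5.77, 6.175 and 5.946% of the counts in 5-FU-treated HSCs and 4.937, 4.778 and 4.801% in PBS-treated HSCs, a difference that was larger than the spread of the libraries (exact permutation p = 0.1, the smallest that 3 libraries against 3 can give).

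Of 12759 genes tested, 2827 passed an adjusted p of 0.05 in edgeR's quasi-likelihood test with Benjamini-Hochberg adjustment (22.2%), 1470 higher in 5-FU-treated HSCs (11.5%) and 1357 lower (10.6%). With library size alone in place of TMM factors, 1127 were higher and 1623 lower, and the median log2 fold change of all genes moved from -0.001 to -0.046. The groups did not overlap in 5577 genes (43.7%). Changes were mostly moderate, since the median log2 fold change was 0.47 among the genes that rose and -0.59 among those that fell, and 176 rose and 281 fell by more than 2-fold. The count of 2827 became 1563 without 5-FU replicate 2, 1767 without 5-FU replicate 3 and 1713 without PBS replicate 2. Each gene described below as having risen or fallen kept its call in all 6 fits that left out 1 library, unless an exception is given beside it. The genes were grouped into 57 lists by function, and a list is given by how many of its tested members rose or fell, to be read against 11.5% and 10.6%. Where a list in a fit without 1 library or under another setting is given by 1 number, that number counts higher and lower members together.

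**Figure D1:**
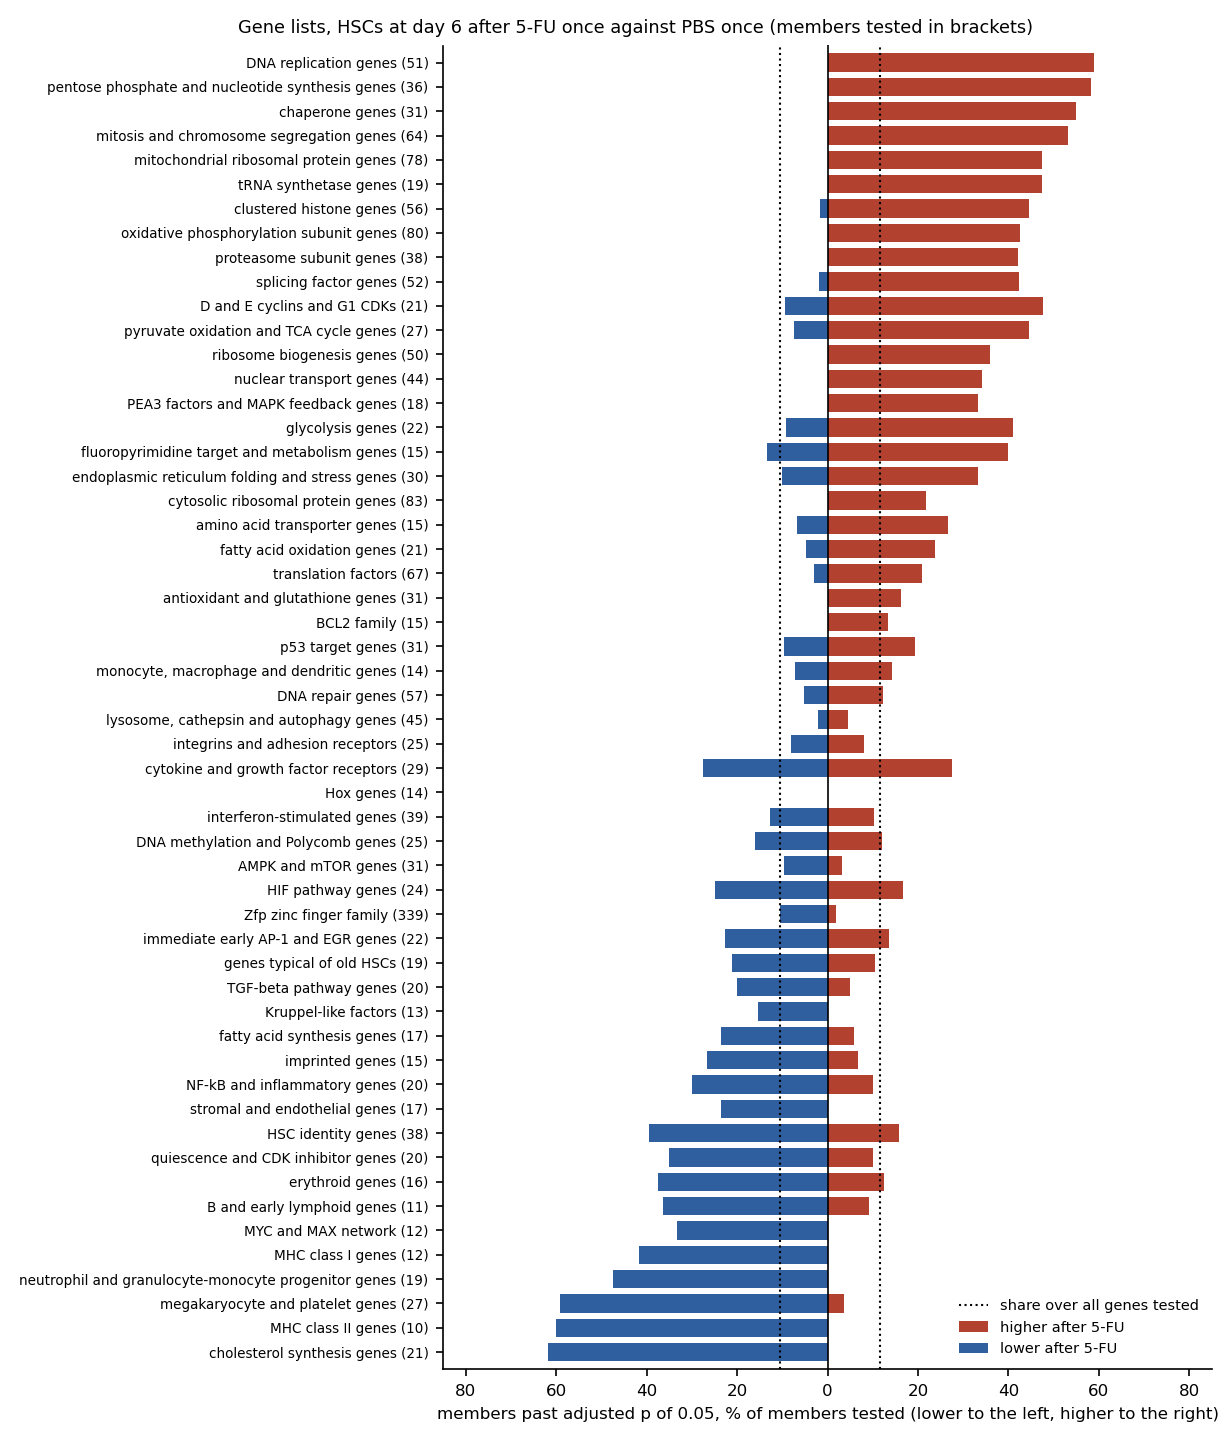
Percentage of each list's tested members past an adjusted p of 0.05, higher in 5-FU-treated HSCs to the right in red and lower to the left in blue, for the lists with at least 10 members tested. Dotted lines mark 11.5% and 10.6%, the shares over all 12759 genes. DNA replication, nucleotide synthesis, chaperone and mitosis lists lie at the top, and cholesterol synthesis, MHC class II and megakaryocyte lists at the bottom.

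Genes of HSC identity fell more often than they rose. Of 38 members tested, 15 fell and 6 rose, with a median log2 fold change of -0.22, and the list held 0.8429, 0.8149 and 0.8427% of the counts after 5-FU and 1.1, 1.075 and 1.046% after PBS. Kit, the stem cell factor receptor and a sort marker, had 14891, 15966 and 15000 after 5-FU and 29943, 27587 and 25527 after PBS (log2 fold change -0.86 ± 0.072 (SE), edgeR adjusted p = 0.00111). The highest 5-FU library lay far below the lowest PBS library. The homeobox factor Meis1 (-0.36, edgeR adjusted p = 0.00958) and the zinc finger factor Gata2 (-0.44, edgeR adjusted p = 0.00777) fell by less. The lipoprotein receptor Vldlr also fell (-1.34, edgeR adjusted p = 0.008).

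Other HSC genes went the opposite way. Mecom, which encodes the self-renewal factor EVI1, had 16211, 17622 and 15959 after 5-FU and 12442, 11428 and 10339 after PBS (log2 fold change 0.54 ± 0.082 (SE), edgeR adjusted p = 0.00572). Ly6a, which encodes the sort marker Sca-1, had 12397, 15559 and 13672 after 5-FU and 6877, 6521 and 7216 after PBS (log2 fold change 1.01 ± 0.093 (SE), edgeR adjusted p = 0.00137). Socs2, a feedback inhibitor of cytokine signalling, had 8180, 9441 and 9972 after 5-FU and 2498, 3550 and 2913 after PBS (log2 fold change 1.62 ± 0.14 (SE), edgeR adjusted p = 0.00113). All 3 ranges were free of overlap. Procr, the EPCR gene, was higher with 848, 842.5 and 833 after 5-FU and 652.6, 675.9 and 679.2 after PBS (log2 fold change 0.33, edgeR adjusted p = 0.0171), a call that was lost without 5-FU replicate 2 (0.0541), without PBS replicate 1 (0.0536), with all 21 libraries in the fit (0.0653), with the replicate block (0.0521) and with the block and length and GC offsets (0.101). Slamf1, which encodes the sort marker CD150, did not pass the test (0.26, edgeR adjusted p = 0.0994), nor did Hlf (-0.24, 0.0613) and Mllt3 (-0.15, 0.25), which encode transcription regulators of HSCs. Among 19 genes typical of old HSCs, 2 were higher and 4 lower (leaving out PBS replicate 1 gave 0 higher and 3 lower, and PBS replicate 2 gave 3 in total). Aldh1a1, a retinaldehyde dehydrogenase (-0.94, edgeR adjusted p = 0.0112), and Alcam, an adhesion molecule (-1.12, 0.00991), were among those that fell.

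**Figure D2:**
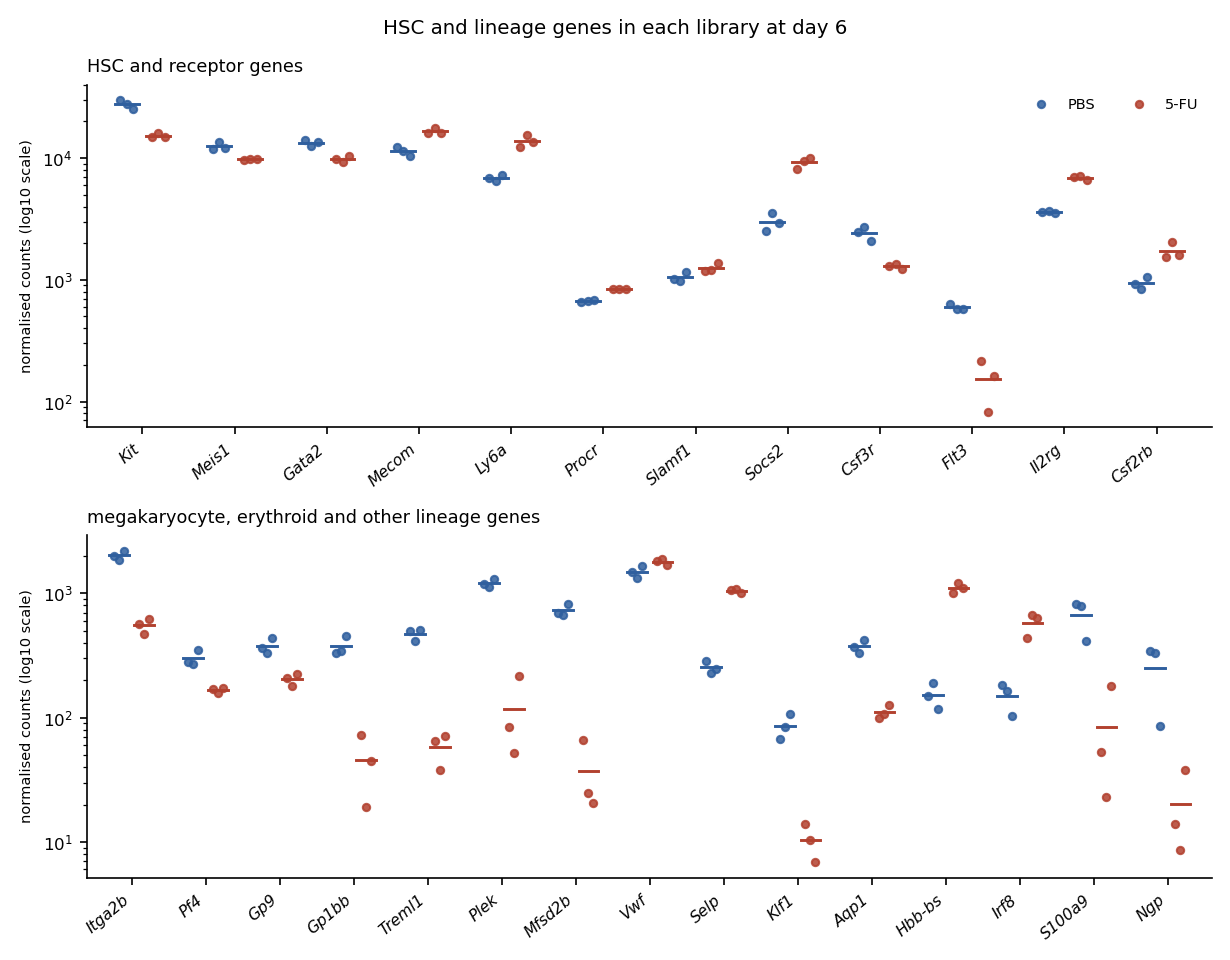
Normalised counts (log10 axis) of HSC and receptor genes and of lineage genes in each library, with PBS-treated HSCs in blue, 5-FU-treated HSCs in red and the group mean as a line. Kit and most megakaryocyte genes lie lower in all 3 red libraries, and Mecom, Ly6a, Socs2, Selp and Hbb-bs lie higher in all 3.

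In the megakaryocyte and platelet list, 16 of 27 members tested fell, 1 rose and 10 did not pass the test, with a median of -0.88, and the list held 0.1008, 0.09171 and 0.09629% of the counts after 5-FU and 0.1544, 0.1562 and 0.1618% after PBS. Itga2b, the platelet integrin CD41, had 565.7, 475.9 and 626.2 after 5-FU and 1985, 1870 and 2209 after PBS (log2 fold change -1.86 ± 0.12 (SE), edgeR adjusted p = 0.000597). Gp1bb, a subunit of the von Willebrand factor receptor, had 72.99, 19 and 45.08 after 5-FU and 334.4, 346.1 and 458.3 after PBS (log2 fold change -3.06 ± 0.42 (SE), edgeR adjusted p = 0.00426). Treml1, a receptor of platelet granules, had 65.48, 37.99 and 71.54 after 5-FU and 497.8, 417.1 and 511.4 after PBS (log2 fold change -3.03 ± 0.24 (SE), edgeR adjusted p = 0.000935). The highest 5-FU library lay below the lowest PBS library in each of these 3 genes. Mfsd2b, the sphingosine-1-phosphate exporter of platelets and red cells, fell most of the members named, with 66.55, 24.7 and 20.58 after 5-FU and 697.5, 675 and 818.4 after PBS (log2 fold change -4.31 ± 0.38 (SE), edgeR adjusted p = 0.00122). Plek, the protein kinase C substrate pleckstrin, had 84.8, 52.24 and 217.5 after 5-FU and 1191, 1127 and 1303 after PBS (log2 fold change -3.35 ± 0.44 (SE), edgeR adjusted p = 0.00371). The chemokine Pf4 (-0.85, edgeR adjusted p = 0.00902), Gp9 (-0.88, 0.00781) and multimerin Mmrn1 (-0.86, 0.000638) fell by about the same amount. The 1 member that rose was Selp, which encodes P-selectin, with 1067, 1076 and 1008 after 5-FU and 288.5, 229.1 and 248.5 after PBS (log2 fold change 2.04 ± 0.11 (SE), edgeR adjusted p = 0.000368). Vwf, the von Willebrand factor gene that marks platelet-biased HSCs, did not pass the test (0.26, edgeR adjusted p = 0.0937). The megakaryocyte and erythroid factor Gata1 had 121.3, 91.18 and 238.1 after 5-FU and 365, 366.2 and 483.7 after PBS, and its call (log2 fold change -1.43, edgeR adjusted p = 0.025) was lost without 5-FU replicate 1 (0.0806), 5-FU replicate 2 (0.0554), PBS replicate 2 (0.0555) or PBS replicate 3 (0.0734).

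Erythroid genes split. Of 16 members tested, 6 fell and 2 rose. Klf1, the master factor of red cells, was low in all libraries and had 13.95, 10.45 and 6.86 after 5-FU and 66.88, 84.37 and 107.1 after PBS (log2 fold change -3.03 ± 0.47 (SE), edgeR adjusted p = 0.00621). The repressor Gfi1b (-0.77, edgeR adjusted p = 0.00183), the water channel Aqp1 (-1.76, 0.0013), the adhesion molecule Icam4 (-1.31, 0.00357) and carbonic anhydrase Car2 (-0.37, 0.00357) fell with it. The 2 adult beta-globin genes rose. Hbb-bs had 1014, 1206 and 1098 after 5-FU and 149, 190.8 and 118.2 after PBS (log2 fold change 2.85 ± 0.17 (SE), edgeR adjusted p = 0.000524). Hbb-bt had 1179, 1336 and 1220 after 5-FU and 194, 222.4 and 159 after PBS (log2 fold change 2.69 ± 0.13 (SE), edgeR adjusted p = 0.000321). These 2 genes are nearly identical, and how reads with several alignments were counted is not given in the sources used here, so that their values are not independent. Hba-a1, an alpha-globin gene, overlapped between the groups with 103, 6.649 and 6.86 in 5-FU-treated HSCs and 21.98, 96.83 and 11.04 in PBS-treated HSCs.

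Granulocyte genes held a small share of the counts in PBS-treated HSCs and a smaller one after 5-FU. Of 19 members tested, 9 fell and none rose, with a median of -2.29, but leaving out 5-FU replicate 1 gave 2, 5-FU replicate 2 gave 5, PBS replicate 1 gave 3 and PBS replicate 2 gave 3, and the replicate block gave 4. The list held 0.00813, 0.007778 and 0.00917% of the counts after 5-FU and 0.02275, 0.02609 and 0.01579% after PBS. S100a9, a calcium-binding protein of neutrophils, had 52.6, 22.8 and 179.3 after 5-FU and 827.4, 791 and 410.8 after PBS (log2 fold change -2.99 ± 0.64 (SE), edgeR adjusted p = 0.0185), and the call was lost without 5-FU replicate 1 (0.0627) or PBS replicate 2 (0.0536). Ngp, a granule protein, had 13.95, 8.549 and 38.22 after 5-FU and 341.1, 330.8 and 86.15 after PBS (log2 fold change -3.63, edgeR adjusted p = 0.0131, and 0.0525 with the replicate block). PBS replicate 3 was the lowest of the PBS libraries for both. Csf3r, the G-CSF receptor, was well expressed and had 1311, 1358 and 1231 after 5-FU and 2456, 2710 and 2088 after PBS (log2 fold change -0.90 ± 0.11 (SE), edgeR adjusted p = 0.00286). Monocyte and dendritic markers did not move as 1 group, with 2 of 14 higher and 1 lower. The 2 that rose were Irf8, the transcription factor of monocyte and dendritic fate, with 434.7, 675.3 and 630.1 after 5-FU and 183.4, 163.9 and 102.7 after PBS (log2 fold change 1.95 ± 0.25 (SE), edgeR adjusted p = 0.00357), and the cysteine protease Ctss. Ctss had 756.8, 890 and 636 after 5-FU and 306.7, 365.3 and 261.8 after PBS (log2 fold change 1.29 ± 0.17 (SE), edgeR adjusted p = 0.00357). Csf1r and Ly86, markers of mature monocytes, were too low to test, with at most 28.5 and 9.80 normalised counts in any library.

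Niche transcripts differed between the groups as well. Of 17 stromal and endothelial genes tested, 4 fell and none rose (leaving out 5-FU replicate 2 gave 2, PBS replicate 2 gave 2 and PBS replicate 3 gave 2). Cxcl12, the chemokine of marrow stroma, had 32.2, 66.49 and 10.78 after 5-FU and 427.1, 1774 and 1049 after PBS (log2 fold change -4.88 ± 0.69 (SE), edgeR adjusted p = 0.00462). The PBS libraries varied widely for this gene, lowest in replicate 1, but stayed above every 5-FU library. Ltbp1, a binding protein of latent TGF-beta, was at 0 in all 5-FU libraries and at 15.3, 309 and 319 in PBS libraries, and was at least 71.4-fold lower against a floor of 3 counts per library (edgeR adjusted p = 0.0224). Its call was lost without 5-FU replicate 1 (0.0532), 5-FU replicate 2 (0.0549), PBS replicate 2 (0.0535) or PBS replicate 3 (0.0544). Lepr, the leptin receptor that defines perivascular stroma, was at 0, 366 and 139 in PBS-treated HSCs and at 0, 8.55 and 0 in 5-FU-treated HSCs. Pdgfrb, a stromal growth factor receptor, had 188.9, 108.3 and 93.09 after 5-FU and 871.4, 872.5 and 376.6 after PBS (log2 fold change -2.45 ± 0.39 (SE), edgeR adjusted p = 0.00683), so that this gene was detected in PBS replicate 1, where Lepr was not. The collagen gene Col1a1 and the endothelial cadherin Cdh5 stayed between 0 and 28.7 normalised counts. The part of stromal RNA in these values was not tested.

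Lymphoid genes were divided, with 1 of 11 B and early lymphoid genes higher and 4 lower, and 1 of 8 T and NK cell genes lower. Single members moved by a lot. Flt3, the receptor of multipotent and lymphoid progenitors and a negative marker of the sort by the study's methods, had 213.6, 82.64 and 160.7 after 5-FU and 632.5, 580 and 577.6 after PBS (log2 fold change -1.97 ± 0.3 (SE), edgeR adjusted p = 0.0055). The chromatin organizer Satb1 had 756.8, 491.1 and 482.1 after 5-FU and 1672, 1473 and 1796 after PBS (log2 fold change -1.52 ± 0.18 (SE), edgeR adjusted p = 0.0031). The cytotoxic granule gene Nkg7 fell (-0.93, edgeR adjusted p = 0.00402). Cd48, a negative marker of the sort, was low in both groups, with 183.6, 203.3 and 197.9 in 5-FU-treated HSCs and 87.9, 121.8 and 121.5 in PBS-treated HSCs. Every 5-FU library lay above every PBS library for this gene.

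Cytokine and growth factor receptors were divided evenly, with 8 of 29 higher and 8 lower (leaving out 5-FU replicate 1 gave 8, 5-FU replicate 2 gave 6, 5-FU replicate 3 gave 7, PBS replicate 2 gave 8 and PBS replicate 3 gave 7). The balance moved with the fit, with 4 higher and 7 lower without PBS replicate 1 and 8 higher and 4 lower with length and GC offsets. Il2rg, the common gamma chain, had 6934, 7072 and 6625 after 5-FU and 3589, 3706 and 3526 after PBS (log2 fold change 0.93 ± 0.06 (SE), edgeR adjusted p = 0.000597). Csf2rb, the common beta chain of the IL-3, IL-5 and GM-CSF receptors, had 1545, 2033 and 1595 after 5-FU and 919.1, 837.9 and 1060 after PBS (log2 fold change 0.88 ± 0.14 (SE), edgeR adjusted p = 0.00614). Both groups were apart in these genes. Il1r1, the IL-1 receptor, was lower with 292, 235.6 and 198.9 after 5-FU and 494.9, 557 and 458.3 after PBS (log2 fold change -1.06 ± 0.16 (SE), edgeR adjusted p = 0.00545, and 0.0581 with all 21 libraries in the fit). Adhesion receptors changed in few members, with 2 of 25 higher and 2 lower (leaving out 5-FU replicate 2 gave 2 and 5-FU replicate 3 gave 2). The immunoglobulin-family protein Emb rose (0.71, edgeR adjusted p = 0.00257), and Spn, which encodes CD43, fell (-0.45, 0.00885).

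Of 18 members of the list of PEA3 factors and MAPK feedback genes, 6 rose and none fell, with a median of 0.30. Etv4, a PEA3-type ETS factor, had 397.2, 327.7 and 350.8 after 5-FU and 0, 0 and 12.15 after PBS (log2 fold change 6.53 ± 0.82 (SE), edgeR adjusted p = 0.00349). It was absent from 2 PBS libraries and present in every 5-FU library, so that the size of its change rests on 1 PBS library and ranged from 5.93 to 11.51 (log2) over the alternatives. Its relative Etv5 had 4362, 5580 and 5325 after 5-FU and 1514, 1924 and 1907 after PBS (log2 fold change 1.51 ± 0.13 (SE), edgeR adjusted p = 0.00115). The feedback inhibitors Spry1 (1.23, edgeR adjusted p = 0.00177) and Dusp4 (1.46, 0.00176) rose with them.

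Immediate early genes showed no common direction, with 3 of 22 higher and 5 lower (each of the 6 fits that left out 1 library gave between 4 and 5, fewest without PBS replicate 3). Nr4a1, an orphan nuclear receptor, had 297.3, 538.6 and 366.5 after 5-FU and 147.1, 114.1 and 138.1 after PBS (log2 fold change 1.59 ± 0.24 (SE), edgeR adjusted p = 0.00533). Jun had a log2 fold change of -0.15 (edgeR adjusted p = 0.347) and Fos one of 1.00 (0.0711). In the TGF-beta list, 1 of 20 rose and 4 fell (leaving out 5-FU replicate 1 gave 3, 5-FU replicate 2 gave 3, 5-FU replicate 3 gave 3, PBS replicate 1 gave 3 and PBS replicate 2 gave 3). The member that rose was Id1, an inhibitor of basic helix-loop-helix factors that BMP signalling induces, with 928.5, 1073 and 800.6 after 5-FU and 115.6, 129.4 and 116 after PBS (log2 fold change 2.95 ± 0.14 (SE), edgeR adjusted p = 0.000321). The latent TGF-beta binding protein Ltbp3 (-1.12, edgeR adjusted p = 0.00435) and the SMAD repressor Skil (-0.95, 0.00409) fell. In the NF-kB list, 6 of 20 fell and 2 rose (each of the 6 fits that left out 1 library gave between 2 and 5, fewest without 5-FU replicate 2). The deubiquitinase Tnfaip3, an NF-kB target and inhibitor, had 587.2, 362.8 and 524.3 after 5-FU and 851.3, 1199 and 873.6 after PBS (log2 fold change -0.99, edgeR adjusted p = 0.0164, 0.0502 with the replicate block and 0.0678 with the block and length and GC offsets).

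Antigen presentation genes fell in part. In MHC class I, 5 of 12 members fell and none rose (leaving out 5-FU replicate 3 gave 3, PBS replicate 1 gave 3 and PBS replicate 3 gave 3), and the list held 0.3645, 0.3531 and 0.3498% of the counts after 5-FU and 0.4777, 0.458 and 0.4977% after PBS. H2-Q6 had 17539, 17507 and 17975 after 5-FU and 29735, 28539 and 31614 after PBS (log2 fold change -0.76 ± 0.057 (SE), edgeR adjusted p = 0.000806). H2-Q7 (-0.52, edgeR adjusted p = 0.00278) and H2-Q4 (-0.77, 0.00443) fell too. The Q genes are close copies and may share reads. The median of the class I list was -0.19. B2m, which encodes the class I light chain, did not pass the test (-0.01, edgeR adjusted p = 0.959). In MHC class II, 6 of 10 members fell and none rose (leaving out 5-FU replicate 3 gave 3, PBS replicate 1 gave 3 and PBS replicate 3 gave 3), with a median of -0.47. Ciita, the transactivator of the class II genes, had 170.7, 317.2 and 268.5 after 5-FU and 574.2, 745.9 and 836.1 after PBS (log2 fold change -1.51 ± 0.24 (SE), edgeR adjusted p = 0.00657). H2-DMa, a peptide-loading chaperone, had 2444, 2542 and 2492 after 5-FU and 3381, 3443 and 3423 after PBS (log2 fold change -0.45 ± 0.06 (SE), edgeR adjusted p = 0.00375). Interferon-stimulated genes did not share a direction, with 4 of 39 higher and 5 lower (leaving out 5-FU replicate 1 gave 4, 5-FU replicate 2 gave 4, 5-FU replicate 3 gave 5, PBS replicate 1 gave 5 and PBS replicate 3 gave 5). Stat2, a factor of type I interferon signalling (-0.62, edgeR adjusted p = 0.0049), and Oasl2 (-0.47, 0.009) were lower. In the Gimap family of lymphocyte GTPases, 2 of 8 rose (leaving out 5-FU replicate 1 gave 1, 5-FU replicate 2 gave 1, PBS replicate 2 gave 1 and PBS replicate 3 gave 1), and Gimap4 had 2889, 3430 and 2605 after 5-FU and 537.9, 897.4 and 590.9 after PBS (log2 fold change 2.14 ± 0.21 (SE), edgeR adjusted p = 0.00161).

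Cell cycle genes of G1 rose in part. Of 21 D and E cyclins, G1 kinases and E2F factors, 10 rose and 2 fell, with a median of 0.29. Ccnd1, the D cyclin induced by mitogens, had 2612, 2657 and 2210 after 5-FU and 512.1, 436.2 and 636.2 after PBS (log2 fold change 2.24 ± 0.15 (SE), edgeR adjusted p = 0.000597). The other D cyclins overlapped between the groups, with log2 fold changes of -0.04 for Ccnd2 (edgeR adjusted p = 0.643) and 0.05 for Ccnd3 (0.611), and their signs turned under other settings (length and GC offsets for Ccnd2, leaving out 5-FU replicate 2 for Ccnd3). The E cyclins rose, with 333.8, 355.2 and 353.8 after 5-FU and 100.3, 94.92 and 160.1 after PBS for Ccne1 (log2 fold change 1.56 ± 0.21 (SE), edgeR adjusted p = 0.00428). Ccne2 had 2657, 3832 and 2566 after 5-FU and 1780, 1461 and 1339 after PBS (log2 fold change 0.98 ± 0.18 (SE), edgeR adjusted p = 0.0105). The 2 kinases that pair with D cyclins went opposite ways. Cdk4 had 9377, 10189 and 9252 after 5-FU and 6825, 6914 and 6993 after PBS (log2 fold change 0.48 ± 0.061 (SE), edgeR adjusted p = 0.00357). Cdk6 had 1424, 1273 and 1510 after 5-FU and 2896, 2656 and 3006 after PBS (log2 fold change -1.02 ± 0.09 (SE), edgeR adjusted p = 0.00122). E2f7, an atypical E2F repressor, had 1227, 1757 and 1551 after 5-FU and 689.8, 600.2 and 846 after PBS (log2 fold change 1.09 ± 0.17 (SE), edgeR adjusted p = 0.00616). Tfdp1, the dimer partner of E2F factors, rose as well (0.65, edgeR adjusted p = 0.00255).

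Genes of quiescence and CDK inhibition were lower on balance, with 7 of 20 that fell and 2 that rose, a median of -0.33 and 0.1387, 0.1294 and 0.1374% of the counts after 5-FU and 0.203, 0.215 and 0.1964% after PBS. Txnip, an inhibitor of thioredoxin and of glucose uptake, had 9893, 8630 and 9019 after 5-FU and 17087, 18430 and 15427 after PBS (log2 fold change -0.89 ± 0.086 (SE), edgeR adjusted p = 0.00161). The glucocorticoid-induced gene Tsc22d3 had 3074, 2603 and 2885 after 5-FU and 5920, 5350 and 5816 after PBS (log2 fold change -1.0 ± 0.083 (SE), edgeR adjusted p = 0.00111). The pocket protein gene Rbl2 (-0.52, edgeR adjusted p = 0.00754) and the antiproliferative gene Btg1 (-0.70, 0.00885) fell by less. Cdkn1a, the p21 inhibitor of CDKs, went against the list with 358.5, 358.1 and 367.5 after 5-FU and 162.4, 96.83 and 139.2 after PBS (log2 fold change 1.44 ± 0.19 (SE), edgeR adjusted p = 0.00385). Cdkn1b, the p27 gene, did not pass the test (-0.15, edgeR adjusted p = 0.582), nor did the p57 gene Cdkn1c of the imprinted list (-0.29, 0.143).

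**Figure D3:**
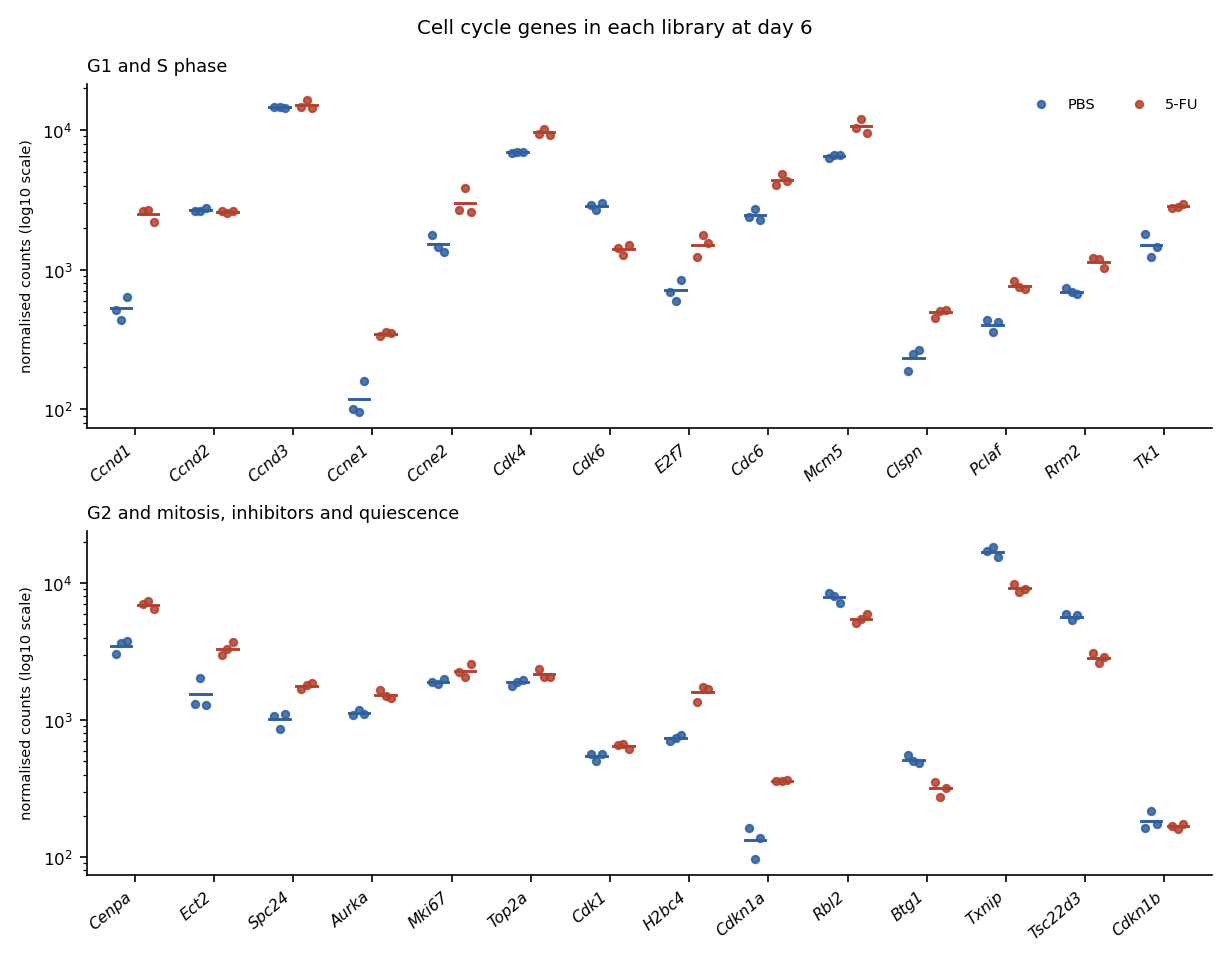
Normalised counts (log10 axis) of cell cycle genes in each library, with PBS-treated HSCs in blue, 5-FU-treated HSCs in red and the group mean as a line. Ccnd1, Ccne1 and Cdkn1a lie well above PBS in all 3 red libraries, Cdk6, Txnip and Tsc22d3 well below, and Mki67, Top2a and Cdk1 only slightly above.

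Of 51 DNA replication genes tested, 30 rose and none fell, with a median of 0.37, and the list held 0.6553, 0.6904 and 0.6419% of the counts after 5-FU and 0.505, 0.4846 and 0.499% after PBS. Of the 6 subunit genes of the licensing helicase, Mcm2 and Mcm4 to Mcm7 rose and Mcm3 did not pass the test (0.23, edgeR adjusted p = 0.0627), with log2 fold changes from 0.34 for Mcm4 to 0.72 for Mcm5, which had 10352, 12050 and 9593 after 5-FU and 6277, 6577 and 6589 after PBS (SE 0.09, edgeR adjusted p = 0.00346). Cdc6, which loads the helicase, had 4059, 4819 and 4299 after 5-FU and 2369, 2719 and 2284 after PBS (log2 fold change 0.84 ± 0.098 (SE), edgeR adjusted p = 0.0027). Clspn, the adaptor of the replication checkpoint, had 453, 509.1 and 516.4 after 5-FU and 187.3, 249.3 and 265.1 after PBS (log2 fold change 1.08 ± 0.15 (SE), edgeR adjusted p = 0.00419). Pclaf, a partner of the sliding clamp, had 824.4, 755.1 and 728.1 after 5-FU and 434.7, 354.7 and 420.8 after PBS (log2 fold change 0.93 ± 0.11 (SE), edgeR adjusted p = 0.00256). Every 5-FU library lay above every PBS library in these genes. Pcna, the clamp itself, did not pass the test (0.23, edgeR adjusted p = 0.091).

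Of 64 genes of mitosis and chromosome segregation tested, 34 rose and none fell, with a median of 0.35 (leaving out 5-FU replicate 1 gave 21, 5-FU replicate 2 gave 20 and PBS replicate 2 gave 22). Cenpa, the centromeric histone H3 variant, had 7056, 7365 and 6524 after 5-FU and 3029, 3664 and 3777 after PBS (log2 fold change 1.00 ± 0.099 (SE), edgeR adjusted p = 0.0017). Ect2, the exchange factor of cytokinesis, had 2998, 3286 and 3708 after 5-FU and 1316, 2022 and 1302 after PBS (log2 fold change 1.11 ± 0.18 (SE), edgeR adjusted p = 0.00754). Hmgb2, a chromatin protein of dividing cells, had 39975, 41115 and 41365 after 5-FU and 24444, 25149 and 25468 after PBS (log2 fold change 0.71 ± 0.048 (SE), edgeR adjusted p = 0.000597). The kinetochore gene Spc24 (0.82, edgeR adjusted p = 0.00385) and the transcription factor Mybl2 (0.91, 0.00983) rose too. Aurka, the spindle pole kinase, rose with 1653, 1490 and 1448 after 5-FU and 1088, 1184 and 1115 after PBS (log2 fold change 0.44 ± 0.081 (SE), edgeR adjusted p = 0.011), a call lost with all 21 libraries in the fit (0.0872) and with the block and length and GC offsets (0.0508). Mki67, which encodes the antigen Ki-67, had 2240, 2053 and 2560 after 5-FU and 1889, 1842 and 1998 after PBS, so that the groups did not overlap, but it did not pass the test (0.26, edgeR adjusted p = 0.0922). Nor did Top2a (0.20, 0.127), Cdk1 (0.26, 0.0716) and Aurkb (0.33, 0.0817). Clustered histone genes rose in 25 of 56 members and fell in 1, with a median of 0.54. H2bc4 had 1350, 1754 and 1676 after 5-FU and 708.9, 744 and 783 after PBS (log2 fold change 1.10 ± 0.11 (SE), edgeR adjusted p = 0.00181). H2bc11 had 210.4, 278.3 and 226.4 after 5-FU and 108.9, 101.6 and 117.1 after PBS (log2 fold change 1.13 ± 0.18 (SE), edgeR adjusted p = 0.0065). With offsets for transcript length and GC content, 18 histone genes were higher and 2 lower, and with the replicate block added 6 were higher and 2 lower. Most histone mRNAs lack a poly(A) tail, which the cDNA kit primes on, and several histone genes are close copies that may share reads.

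The promoters of these genes differed by phase in the short motifs they held. The sequences run from 250 bases before to 50 bases after the transcription start (RefSeq, GRCm38.p6, 5′ to 3′ on the strand of the gene), and 10328 of the 12759 genes tested had one. Motifs were searched on both strands. They were the E2F core TTCCCGC, the cell cycle homology region (CHR) TTTGAA, and the CCAAT box CCAAT, and no matches of different motifs overlapped in the promoters shown. The E2F core was in 42.9% of 42 promoters of the replication list, 3.64% of 55 of the mitosis list and 8.52% of all. The CHR showed the reverse order, with 67.3% of the mitosis list, 14.3% of the replication list and 12.3% of all. CCAAT was in 84.3% of 51 histone promoters and 39.3% of all. Among lists with mostly falls, it was in 93.3% of 15 cholesterol synthesis, 100% of 10 MHC class I and 31.8% of 22 megakaryocyte promoters. The E2F core was also in 34% of 47 DNA repair promoters. Among all genes that rose, 12% held the E2F core and 14.7% the CHR, against 5.52% and 8.77% of those that fell. A match is a description of the sequence and not a binding site. The promoters of 3 genes with an E2F core that rose are shown first, with the E2F core in capitals in either orientation, for Pclaf (chr9:65890073-65890372, plus strand), Uhrf1, a maintenance factor of DNA methylation described below (chr17:56303087-56303386, plus strand), and E2f7 (chr10:110745189-110745488, plus strand).
Pclaf: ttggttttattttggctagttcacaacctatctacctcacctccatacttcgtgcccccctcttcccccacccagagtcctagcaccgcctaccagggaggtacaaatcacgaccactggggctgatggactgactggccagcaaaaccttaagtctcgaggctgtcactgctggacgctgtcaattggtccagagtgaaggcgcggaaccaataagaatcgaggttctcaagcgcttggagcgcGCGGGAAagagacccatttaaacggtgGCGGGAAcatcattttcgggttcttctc
Uhrf1: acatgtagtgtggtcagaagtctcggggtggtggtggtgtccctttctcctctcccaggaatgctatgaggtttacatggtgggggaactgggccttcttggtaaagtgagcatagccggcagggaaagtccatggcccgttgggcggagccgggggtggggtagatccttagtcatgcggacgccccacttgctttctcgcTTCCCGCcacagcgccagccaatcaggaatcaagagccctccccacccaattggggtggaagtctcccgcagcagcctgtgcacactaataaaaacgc
E2f7: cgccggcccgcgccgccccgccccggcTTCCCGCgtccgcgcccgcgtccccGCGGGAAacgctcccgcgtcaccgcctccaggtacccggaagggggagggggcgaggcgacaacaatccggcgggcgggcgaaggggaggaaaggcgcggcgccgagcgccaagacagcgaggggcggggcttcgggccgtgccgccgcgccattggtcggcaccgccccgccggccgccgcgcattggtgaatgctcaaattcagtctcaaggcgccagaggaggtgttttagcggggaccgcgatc
The E2F core began 5 bases before and 23 bases after the start of Pclaf, 48 before that of Uhrf1, and 223 and 198 before that of E2f7, counted by the first base of the match. The next 4 promoters, with CHR and CCAAT in capitals in either orientation, belong to Cenpa (chr5:30666636-30666935, plus strand), Hmgb2 (chr8:57511593-57511892, plus strand), Aurka (chr2:172370521-172370820, minus strand) and H2bc11 (chr13:22042948-22043247, plus strand).
Cenpa: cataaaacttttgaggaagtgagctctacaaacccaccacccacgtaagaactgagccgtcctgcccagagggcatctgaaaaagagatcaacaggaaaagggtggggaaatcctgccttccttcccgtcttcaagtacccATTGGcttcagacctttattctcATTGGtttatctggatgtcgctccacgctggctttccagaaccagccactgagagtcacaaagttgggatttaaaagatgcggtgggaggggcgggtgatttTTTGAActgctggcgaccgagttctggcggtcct
Hmgb2: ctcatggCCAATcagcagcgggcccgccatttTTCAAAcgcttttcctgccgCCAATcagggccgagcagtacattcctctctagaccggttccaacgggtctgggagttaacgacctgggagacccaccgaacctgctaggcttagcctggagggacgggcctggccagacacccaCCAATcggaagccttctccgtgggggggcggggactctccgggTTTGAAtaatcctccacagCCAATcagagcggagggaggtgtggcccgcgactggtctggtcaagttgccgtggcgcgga
Aurka: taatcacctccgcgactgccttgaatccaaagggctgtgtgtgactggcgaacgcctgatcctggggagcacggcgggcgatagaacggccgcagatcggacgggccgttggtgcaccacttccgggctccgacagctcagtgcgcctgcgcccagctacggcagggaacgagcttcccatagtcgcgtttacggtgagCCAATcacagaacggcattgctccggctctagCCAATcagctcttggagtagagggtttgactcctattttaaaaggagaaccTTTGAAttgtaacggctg
H2bc11: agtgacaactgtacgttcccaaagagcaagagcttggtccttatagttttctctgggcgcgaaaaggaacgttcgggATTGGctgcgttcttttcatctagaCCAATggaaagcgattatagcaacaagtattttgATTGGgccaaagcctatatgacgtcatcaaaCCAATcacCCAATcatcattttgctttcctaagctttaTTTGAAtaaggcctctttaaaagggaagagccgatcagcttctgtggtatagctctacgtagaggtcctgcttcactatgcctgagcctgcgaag
Cenpa held 2 CCAAT boxes and 1 CHR, Hmgb2 4 and 2, Aurka 2 and 1, and H2bc11 5 and 1.

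Genes of the response to DNA damage were divided. Of 31 p53 target genes, 6 rose and 3 fell (leaving out 5-FU replicate 1 gave 4, 5-FU replicate 2 gave 2, 5-FU replicate 3 gave 4, PBS replicate 1 gave 5 and PBS replicate 3 gave 4). Besides Cdkn1a, the kinase gene Plk3 had 165.3, 189 and 277.3 after 5-FU and 85.99, 56.57 and 67.37 after PBS (log2 fold change 1.59 ± 0.28 (SE), edgeR adjusted p = 0.00925), and Sesn1, a stress sensor of the mTOR pathway, rose (0.62, edgeR adjusted p = 0.00835). Mdm2 (-0.18, edgeR adjusted p = 0.118), the pro-apoptotic gene Bbc3 (-0.18, 0.446) and Bax (0.32, 0.0735) did not pass the test. In DNA repair, 7 of 57 rose and 3 fell (leaving out 5-FU replicate 2 gave 4, 5-FU replicate 3 gave 6, PBS replicate 2 gave 6 and PBS replicate 3 gave 5), the first share close to 11.5% and the second below 10.6%. The exonuclease Exo1 (0.83, edgeR adjusted p = 0.00443), the checkpoint kinase Chek1 (0.78, 0.00412) and the glycosylase Tdg (0.65, 0.00246) were among those that rose. In the BCL2 family, 2 of 15 rose. Bok had 259.8, 230.8 and 268.5 after 5-FU and 60.19, 51.77 and 47.49 after PBS (log2 fold change 2.25 ± 0.19 (SE), edgeR adjusted p = 0.00111). The anti-apoptotic gene Bcl2l1 had 6322, 6743 and 6916 after 5-FU and 4777, 5339 and 4409 after PBS (log2 fold change 0.46 ± 0.085 (SE), edgeR adjusted p = 0.011).

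Nucleotide synthesis genes rose. Of 36 genes of the pentose phosphate pathway and nucleotide synthesis, 21 rose and none fell, with a median of 0.32 and 0.5484, 0.5756 and 0.5576% of the counts after 5-FU and 0.448, 0.4373 and 0.4387% after PBS. Cad, which starts pyrimidine synthesis, had 11377, 14956 and 13245 after 5-FU and 7743, 8151 and 7045 after PBS (log2 fold change 0.79 ± 0.11 (SE), edgeR adjusted p = 0.00429). Umps, which completes it and also activates 5-FU, had 6498, 7250 and 6524 after 5-FU and 4370, 4330 and 4519 after PBS (log2 fold change 0.62 ± 0.068 (SE), edgeR adjusted p = 0.00232). Rrm2, the limiting subunit of ribonucleotide reductase, had 1209, 1190 and 1024 after 5-FU and 736.6, 687.4 and 664.9 after PBS (log2 fold change 0.71 ± 0.092 (SE), edgeR adjusted p = 0.00363). The diphosphate kinase Nme1 (0.95, edgeR adjusted p = 0.00122) and the mitochondrial folate enzyme Mthfd2 (1.10, 0.00375) rose by more. Among 15 genes of fluoropyrimidine targets and metabolism, 6 rose and 2 fell (leaving out 5-FU replicate 1 gave 5, 5-FU replicate 2 gave 4, PBS replicate 2 gave 4 and PBS replicate 3 gave 4). Dut, which removes dUTP, had 3961, 4627 and 4435 after 5-FU and 2563, 2529 and 2566 after PBS (log2 fold change 0.77 ± 0.076 (SE), edgeR adjusted p = 0.00171). Tk1, the salvage kinase of thymidine, had 2753, 2824 and 2966 after 5-FU and 1807, 1225 and 1446 after PBS (log2 fold change 0.93 ± 0.14 (SE), edgeR adjusted p = 0.00514). Slc29a1, a nucleoside transporter, rose (0.64, edgeR adjusted p = 0.0058). Tyms, the target of 5-FU, had 770.7, 768.4 and 768.3 after 5-FU and 693.6, 581 and 656 after PBS, ranges that did not overlap but did not pass the test (0.26, edgeR adjusted p = 0.0755). Dpyd, which degrades 5-FU, was at 0 in all 6 libraries.

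Of 78 mitochondrial ribosomal protein genes, 37 rose and none fell, with a median of 0.32, though each of the 6 fits that left out 1 library gave between 15 and 22, fewest without 5-FU replicate 3, and library size alone gave 23 and the replicate block 20. Mrpl42 had 4332, 4874 and 4489 after 5-FU and 2703, 2972 and 2569 after PBS (log2 fold change 0.73 ± 0.082 (SE), edgeR adjusted p = 0.00243). Of 83 cytosolic ribosomal protein genes, 18 rose and none fell, with a median of 0.12 (leaving out 5-FU replicate 3 gave 11 and PBS replicate 2 gave 11). With length and GC offsets 11 were higher and 1 lower, and the median was -0.00. Rpl35a (0.55, edgeR adjusted p = 0.00243) and Rpl29 (0.62, 0.0057) rose, while Rps19 had a log2 fold change of 0.06 (0.498). Ribosomal protein genes have many processed copies that may share reads. In ribosome biogenesis, 18 of 50 rose and none fell (leaving out 5-FU replicate 1 gave 9, 5-FU replicate 2 gave 7, 5-FU replicate 3 gave 5, PBS replicate 1 gave 8 and PBS replicate 2 gave 7), with 11 by library size alone and 10 with the replicate block. The nucleolar chaperone Npm1 had 30409, 33559 and 30941 after 5-FU and 18784, 17891 and 17895 after PBS (log2 fold change 0.80 ± 0.059 (SE), edgeR adjusted p = 0.000805). The snoRNP proteins Nhp2 (0.65, edgeR adjusted p = 0.00194) and Dkc1 (0.59, 0.00993) rose. Among 67 translation factors and their regulators, 14 rose and 2 fell (leaving out 5-FU replicate 2 gave 10, 5-FU replicate 3 gave 10, PBS replicate 1 gave 10 and PBS replicate 2 gave 9). Eif5a, the elongation factor that carries hypusine, had 195604, 228255 and 203517 after 5-FU and 146621, 139396 and 137858 after PBS (log2 fold change 0.57 ± 0.065 (SE), edgeR adjusted p = 0.00258). Eef2k, the kinase that inhibits elongation, fell (-0.60, edgeR adjusted p = 0.00384). Of 19 tRNA synthetase genes, 9 rose and none fell, with Cars at 0.67 (edgeR adjusted p = 0.00809).

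**Figure D4:**
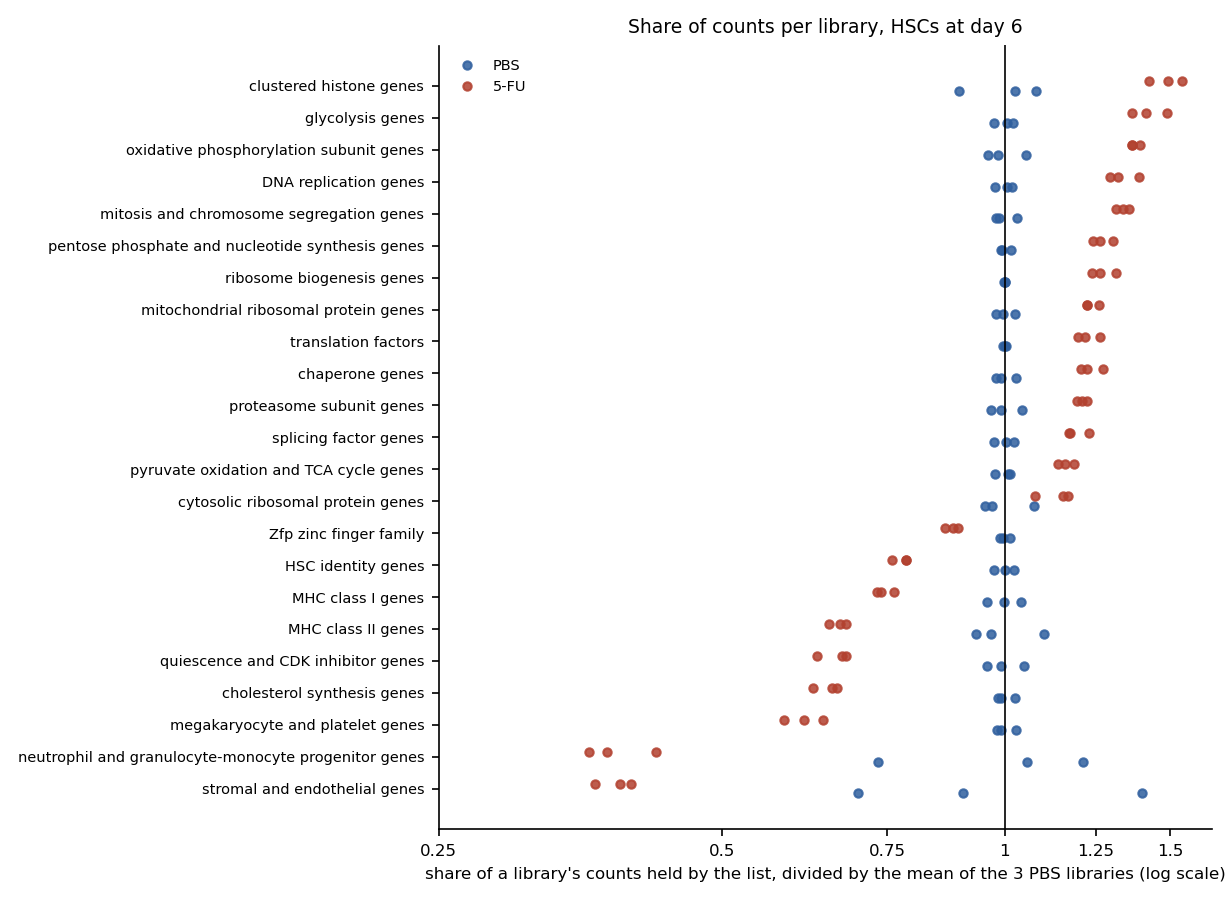
Share of a library's counts held by each of 23 gene lists, divided by the mean of the 3 PBS libraries (log axis), with PBS-treated HSCs in blue and 5-FU-treated HSCs in red. Replication, mitosis, histone, glycolysis and oxidative phosphorylation lists take between 1.34 and 1.49 times the PBS share, cytosolic ribosomal protein genes 1.13 times with ranges that nearly meet, and megakaryocyte genes 0.611 times. The rise of the glycolysis share was largely that of Pkm.

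Of 31 chaperone genes, 17 rose and none fell (leaving out 5-FU replicate 1 gave 9, 5-FU replicate 2 gave 8, 5-FU replicate 3 gave 9, PBS replicate 1 gave 10 and PBS replicate 2 gave 9), with 11 by library size alone and 11 with the replicate block. Hspd1, the mitochondrial chaperonin, had 11829, 14020 and 12173 after 5-FU and 9144, 8362 and 7555 after PBS (log2 fold change 0.60 ± 0.096 (SE), edgeR adjusted p = 0.00679), and Cct2 of the cytosolic chaperonin rose (0.53, edgeR adjusted p = 0.00354). Of 38 proteasome subunit genes, 16 rose and none fell, but each of the 6 fits that left out 1 library gave between 4 and 6, fewest without PBS replicate 2, and library size alone gave 5, the replicate block 5 and length and GC offsets 8. Psma7 (0.61, edgeR adjusted p = 0.00366) and Psma3 (0.58, 0.00357) kept their calls. In the endoplasmic reticulum list, 10 of 30 rose and 3 fell, but each of the 6 fits that left out 1 library gave between 3 and 6, fewest without 5-FU replicate 2, and library size alone gave 8, the replicate block 7 and length and GC offsets 8. Of 52 splicing factor genes, 22 rose and 1 fell (leaving out 5-FU replicate 1 gave 15, 5-FU replicate 3 gave 15, PBS replicate 1 gave 15 and PBS replicate 2 gave 15). Hnrnpa1 had 13728, 15673 and 13514 after 5-FU and 8848, 9218 and 8594 after PBS (log2 fold change 0.69 ± 0.074 (SE), edgeR adjusted p = 0.00221), and Srsf10 rose (0.62, edgeR adjusted p = 0.00174). Of 44 nuclear transport genes, 15 rose and none fell (leaving out 5-FU replicate 1 gave 9, 5-FU replicate 2 gave 9 and 5-FU replicate 3 gave 8). Nutf2, the import carrier of RAN, had 13996, 14893 and 14141 after 5-FU and 8904, 9131 and 8702 after PBS (log2 fold change 0.69 ± 0.056 (SE), edgeR adjusted p = 0.00102), and Rcc1, its exchange factor, rose (0.65, edgeR adjusted p = 0.00263).

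Energy genes rose on the side of respiration as well as glycolysis. Of 80 subunit genes of oxidative phosphorylation encoded in the nucleus, 34 rose and none fell, with a median of 0.31 (leaving out 5-FU replicate 3 gave 22, PBS replicate 1 gave 22 and PBS replicate 2 gave 22), and the list held 0.645, 0.6451 and 0.6583% of the counts after 5-FU and 0.4651, 0.4536 and 0.4984% after PBS. Atp5g3, the ring subunit of ATP synthase, had 7825, 8569 and 7981 after 5-FU and 4195, 4513 and 4607 after PBS (log2 fold change 0.87 ± 0.068 (SE), edgeR adjusted p = 0.000935). Uqcr10 of complex III had 2177, 2176 and 2400 after 5-FU and 1310, 1151 and 1345 after PBS (log2 fold change 0.83 ± 0.088 (SE), edgeR adjusted p = 0.002). With length and GC offsets, 24 rose and 1 fell, with a median of 0.19. Genes encoded in the mitochondrial genome were not analysed here. In pyruvate oxidation and the TCA cycle, 12 of 27 rose and 2 fell, but each of the 6 fits that left out 1 library gave between 2 and 9, fewest without PBS replicate 2, and library size alone gave 7 and the replicate block 7. Pdp1, the phosphatase that activates pyruvate dehydrogenase, had 6438, 7978 and 5703 after 5-FU and 3026, 3113 and 2188 after PBS (log2 fold change 1.27 ± 0.17 (SE), edgeR adjusted p = 0.00385). In glycolysis, 9 of 22 rose and 2 fell (leaving out 5-FU replicate 2 gave 7 and PBS replicate 1 gave 7), with a median of 0.21. The list held 1.358, 1.481 and 1.406% of the counts after 5-FU and 0.9995, 1.016 and 0.9681% after PBS. Hk2, the inducible hexokinase, had 738.5, 839.7 and 791.8 after 5-FU and 457.7, 372 and 424.1 after PBS (log2 fold change 0.92 ± 0.1 (SE), edgeR adjusted p = 0.00254). Pkm, the pyruvate kinase gene, had 194589, 223686 and 207359 after 5-FU and 127505, 128879 and 117046 after PBS (log2 fold change 0.74 ± 0.065 (SE), edgeR adjusted p = 0.00122). Pkm held a large part of the counts of this list, so that the rise of the list's share was largely that of Pkm. The isozyme gene Aldoc fell (-1.14, edgeR adjusted p = 0.00138). HIF pathway genes were divided, with 4 of 24 higher and 6 lower (leaving out 5-FU replicate 2 gave 5, PBS replicate 2 gave 6 and PBS replicate 3 gave 6). Ndrg1, a gene induced by hypoxia, had 385.4, 294.4 and 384.1 after 5-FU and 1058, 1131 and 966.4 after PBS (log2 fold change -1.57 ± 0.13 (SE), edgeR adjusted p = 0.00102). Ldha, another HIF target, rose (0.57, edgeR adjusted p = 0.00443). Fatty acid oxidation changed in 5 members that rose and 1 that fell of 21 (leaving out 5-FU replicate 1 gave 2, 5-FU replicate 2 gave 1, PBS replicate 1 gave 3, PBS replicate 2 gave 2 and PBS replicate 3 gave 3), and library size alone and the replicate block each gave 3. The transferase gene Cpt1a, which admits fatty acids to mitochondria, rose (0.39, edgeR adjusted p = 0.00772). Of 31 antioxidant and glutathione genes, 5 rose and none fell, with peroxiredoxin Prdx4 at 0.66 (edgeR adjusted p = 0.00385) and thioredoxin reductase Txnrd1 at 0.39 (0.00712).

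Cholesterol synthesis genes fell. Of 21 genes, 13 fell and none rose, with a median of -0.57, and the list held 0.1003, 0.09446 and 0.09908% of the counts after 5-FU and 0.1486, 0.1498 and 0.155% after PBS. Lss, the cyclase that makes lanosterol, had 359.6, 358.1 and 338.1 after 5-FU and 671.7, 637.6 and 705.7 after PBS (log2 fold change -0.93 ± 0.085 (SE), edgeR adjusted p = 0.00137). Insig1, the sterol sensor, had 504.5, 396.1 and 412.6 after 5-FU and 795.9, 909.9 and 746.6 after PBS (log2 fold change -0.90 ± 0.12 (SE), edgeR adjusted p = 0.0043). Both genes had their highest 5-FU library below their lowest PBS library. Srebf2, the transcription factor of the pathway, did not pass the test (-0.16, edgeR adjusted p = 0.115). Fatty acid synthesis had 1 member that rose and 4 that fell of 17 (leaving out 5-FU replicate 1 gave 3 and PBS replicate 2 gave 3). The acyl-CoA ligase Acsl3 had 2012, 2296 and 1746 after 5-FU and 4184, 4274 and 4248 after PBS (log2 fold change -1.07 ± 0.1 (SE), edgeR adjusted p = 0.00161), and Acss2, which makes acetyl-CoA from acetate, fell (-0.62, edgeR adjusted p = 0.00443).

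Of 31 AMPK and mTOR genes, 1 rose and 3 fell (leaving out 5-FU replicate 3 gave 2 and PBS replicate 2 gave 2). The AMPK subunit Prkab1 rose (0.59, edgeR adjusted p = 0.00433), and Ulk1, the kinase that starts autophagy, fell with 2679, 2352 and 2298 after 5-FU and 3817, 4167 and 3642 after PBS (log2 fold change -0.67 ± 0.088 (SE), edgeR adjusted p = 0.00379). Of 45 lysosome and autophagy genes, 2 rose and 1 fell, a smaller share than over all genes. The member that fell was Atg7, an enzyme of autophagosome formation (-0.70, edgeR adjusted p = 0.00495). Of 15 amino acid transporter genes, 4 rose and 1 fell (leaving out 5-FU replicate 2 gave 2, 5-FU replicate 3 gave 3 and PBS replicate 3 gave 2, and library size alone 8), with the large neutral transporter Slc7a5 at 880.2, 943.2 and 993.7 after 5-FU and 622.9, 559.9 and 606.3 after PBS (log2 fold change 0.66 ± 0.085 (SE), edgeR adjusted p = 0.00357).

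Regulators of chromatin are given by single genes. Of 25 DNA methylation and Polycomb genes, 3 rose and 4 fell, in total 28% of the list and near the 22.2% of all genes. Uhrf1, which recruits the maintenance methyltransferase, had 17421, 21537 and 17862 after 5-FU and 12067, 11508 and 9673 after PBS (log2 fold change 0.77 ± 0.11 (SE), edgeR adjusted p = 0.00496). Dnmt3b, a de novo methyltransferase, had 32497, 38998 and 34064 after 5-FU and 24390, 25090 and 24127 after PBS (log2 fold change 0.52 ± 0.075 (SE), edgeR adjusted p = 0.00487). On the opposite side, the dioxygenase Tet2 (-0.59, edgeR adjusted p = 0.00461), the Polycomb methyltransferase Ezh1 (-0.74, 0.00865) and the Polycomb reader Cbx7 (-0.80, 0.00781) fell. Of 339 zinc finger genes of the Zfp family, 36 fell, a share close to 10.6%, and 6 rose, a share below 11.5%, with a median of -0.19 (each of the 6 fits that left out 1 library gave between 21 and 27, fewest without PBS replicate 2). None of 14 Hox genes tested passed the threshold over the 6 libraries in edgeR or DESeq2 (leaving out PBS replicate 3 gave 1 higher). By unadjusted p, 1 was under 0.05, Hoxb2 with a log2 fold change of 0.50 and an edgeR adjusted p of 0.0665, which was named after its value was seen. Imprinted genes had 1 that rose and 4 that fell of 15. Grb10, an adaptor that restrains growth factor signalling, had 9405, 11173 and 10623 after 5-FU and 7411, 7617 and 6415 after PBS (log2 fold change 0.54 ± 0.093 (SE), edgeR adjusted p = 0.00885). The growth factor Igf2 had 21.47, 25.65 and 44.1 after 5-FU and 142.4, 242.6 and 184.4 after PBS (log2 fold change -2.63 ± 0.36 (SE), edgeR adjusted p = 0.00433, and 0.217 with all 21 libraries in the fit). Of 13 Kruppel-like factors, 2 fell and none rose, the erythroid Klf1 and the stress-induced Klf9 (-0.54, edgeR adjusted p = 0.0143). In the MYC network, 4 of 12 fell and none rose (leaving out 5-FU replicate 2 gave 2). Those were antagonists or partners such as Mxi1 (-0.53, edgeR adjusted p = 0.0119) and Mga (-0.48, 0.00721). Myc itself had 21359, 27173 and 25434 after 5-FU and 26941, 26498 and 26080 after PBS (-0.10, edgeR adjusted p = 0.433).

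Some of the largest changes fell outside these lists. The 15 largest rises were sought among genes whose libraries did not overlap and whose mean was at least 100 normalised counts. They included Gem, a small GTPase of the RGK family, with 2120, 2038 and 2078 after 5-FU and 169.1, 155.3 and 172.3 after PBS (log2 fold change 3.65 ± 0.081 (SE), edgeR adjusted p = 4.07e-06), which had the smallest p of the genes named. Dglucy, which encodes D-glutamate cyclase, had 2233, 2991 and 2273 after 5-FU and 239.8, 148.6 and 509.1 after PBS (log2 fold change 3.07 ± 0.4 (SE), edgeR adjusted p = 0.00374). P2rx7, an ATP-gated channel, had 1059, 1127 and 1072 after 5-FU and 162.4, 304.9 and 102.7 after PBS (log2 fold change 2.51 ± 0.33 (SE), edgeR adjusted p = 0.00385). The Notch ligand Jag1 had 213.6, 231.8 and 157.8 after 5-FU and 19.11, 51.77 and 55.22 after PBS (log2 fold change 2.26 ± 0.41 (SE), edgeR adjusted p = 0.0104). Sh3bgrl2 (2.24, edgeR adjusted p = 0.00278) and Gask1b (2.31, 0.0102) rose by a similar amount. The 15 largest falls included Hnf4a, a nuclear receptor known from liver, with 201.8, 79.79 and 125.4 after 5-FU and 1926, 1277 and 1434 after PBS (log2 fold change -3.52 ± 0.32 (SE), edgeR adjusted p = 0.00137). Zbtb16, which encodes PLZF, had 68.7, 10.45 and 40.18 after 5-FU and 493, 371 and 395.4 after PBS (log2 fold change -3.41 ± 0.52 (SE), edgeR adjusted p = 0.00577). Sox6, an HMG-box factor of erythroid genes, had 1990, 1115 and 2152 after 5-FU and 12702, 9664 and 9423 after PBS (log2 fold change -2.60 ± 0.25 (SE), edgeR adjusted p = 0.00167). The groups did not overlap in any of these genes, since the rule required it.

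The same contrast was available on day 6 after 3 administrations, in 6 libraries that the comparison above does not use. By the labels, these administrations were 21 days apart, and the dose of 5-FU was the same as for the single administration. The labelled age was 10 weeks, also the same as for the single administration. There, 2310 of 12729 genes passed the threshold (18.1%), 1253 higher (9.84%) and 1057 lower (8.3%). The ranges of 5-FU and PBS libraries were apart in 39.9% of genes there. Side by side, mitosis genes that rose numbered 34 of 64 after 1 administration and 59 of 64 after 3, DNA replication genes 30 and 33 of 51, and DNA repair genes 7 and 21 of 57. For mitochondrial ribosomal protein genes the numbers were 37 and 10 of 78, for oxidative phosphorylation 34 and 15 of 80, and for cytosolic ribosomal protein genes 18 and 2 of 83. Cholesterol synthesis genes that fell numbered 13 and 10 of 21, and megakaryocyte genes 16 and 13 of 27. The difference between the 2 administrations was tested per gene over 12 libraries, and 86 of 13227 genes passed the threshold (0.65%), so that differences between these counts are not differences that were tested. The 86 included 6 of 64 mitosis genes and 6 of 27 megakaryocyte genes. Of the megakaryocyte genes, Itga2b, Gp1bb, Treml1, Mfsd2b and Selp were nearer to 0 after 3 administrations.

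**Figure D5:**
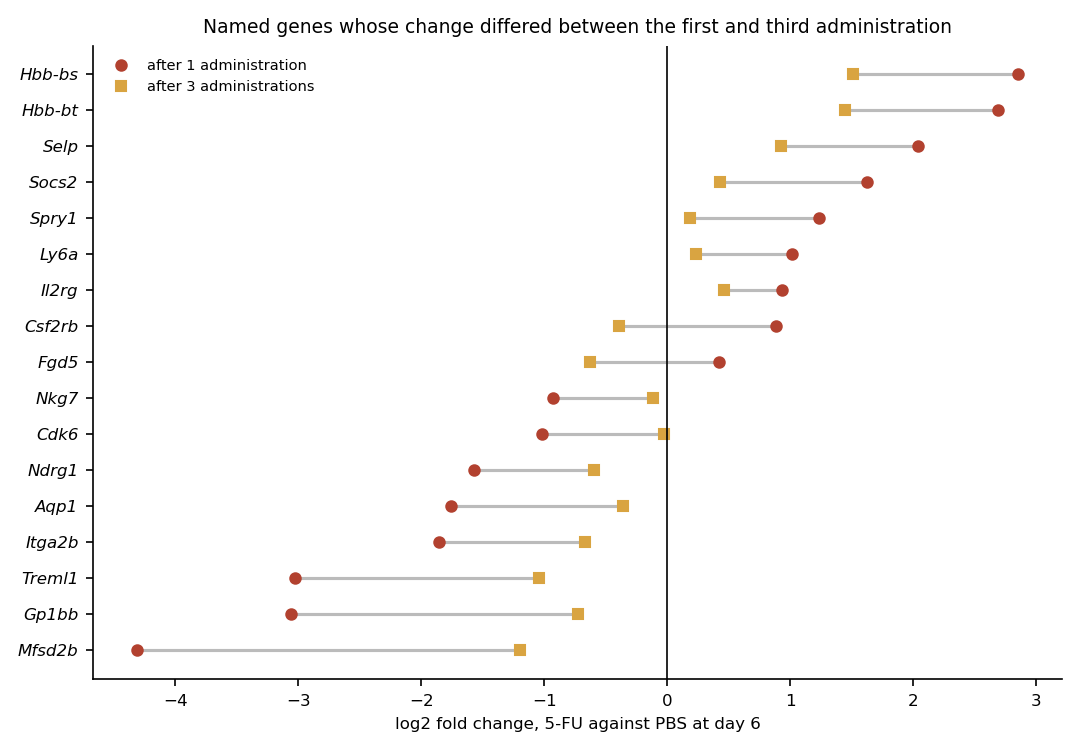
Log2 fold change of 5-FU against PBS at day 6 after 1 administration (circles) and after 3 (squares), for the named genes whose change differed between them at an adjusted p of 0.05. Mfsd2b, Gp1bb, Treml1 and Itga2b lie nearer to 0 after 3 administrations, and Csf2rb and Fgd5 lie on opposite sides of 0. The change of Fgd5 after 1 administration did not pass the test.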

How the data were processed

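RNA sequencing counts of 6 libraries (3 of 5-FU-treated and 3 of PBS-treated HSCs, grouped by their titles) were analysed, and 6 libraries of the third administration were set beside them. The deposited values are raw counts per gene symbol, made by the authors from single-end reads. Per the labels, the submitters' processing notes name TopHat2 2.0.13, Cufflinks 2.2.1, Cuffdiff and mm10, and the counting program, its use of strand and its treatment of reads with several alignments are not given in the sources used here. Amplified cDNA reads carried no molecular identifiers, so that floors cover counting error only.

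Genes were filtered with filterByExpr, scaled by TMM and tested by edgeR 4.0.16 (R 4.3.3) with glmQLFit and glmQLFTest, over the 6 libraries of a comparison without a block, at a Benjamini-Hochberg adjusted p of 0.05. The interaction used 12 libraries. Shares of counts were compared by two-sided exact permutation over 20 assignments. Alternatives were DESeq2 1.42.0, RLE or library size scaling, other filters, offsets for length and GC content (mgcv 1.9.3), the replicate block, all 21 libraries and leaving out each library. On simulated counts for the 12759 genes of the first administration, 69.2% of 52 genes changed to 0.5-fold and 68.0% of 50 changed to 2-fold were recovered, and 6.67% of calls were false. Far fewer genes were changed there than passed the threshold in the data, so that these rates need not hold for the data.

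The sources used here state no pairing of libraries by replicate number. Deviations of same-numbered libraries from their group means correlated at 0.0223, 0.0287 and -0.0118, and those of differently numbered libraries at -0.0653 to 0.0441. Such values show no strong shared deviation but cannot show whether libraries were made in pairs. By the study's methods the libraries came from independent experiments. Replicates differed by 16.5 to 20.4 times the sampling variance, more than counting error alone gives. The sampling variance leaves out the error of amplification, so that these values cannot tell independent samples from repeated amplifications of the same cells.

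The members and the 57 gene lists were chosen with earlier results of these data known. Named genes were the fixed members of each list, up to 4 members with the largest change past the threshold, up to 2 with the highest counts, and the 15 largest rises and falls with a mean of at least 100 normalised counts and no overlap between the groups, leaving out predicted genes. Promoters came from RefSeq (GRCm38.p6), matched by symbol. Python 3.11.15, pandas 2.3.3, numpy 2.4.6 and matplotlib 3.10.9 were used.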

Additional observations from a re-analysis of the deposited data

Results flagged for a closer look

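The change from PBS at day 6 differed between the third and the first administration in 17 of the genes named, by the interaction test of edgeR over 12 libraries. Differences below are on the log2 scale, the third minus the first, and 86 genes of 13227 passed an adjusted p of 0.05 (0.65%). The 2 comparisons share no library, and no fit left out single libraries for the interaction. The naming rule used values of the first administration, a choice that favours changes nearer to 0 after the third. The 17 genes therefore do not describe how all genes differed between the administrations. In the mitosis list, 6 of 64 genes also passed, none of them among the 17. The median log2 fold change of that list was 0.35 after the first administration and 0.91 after the third. The number of injections goes with the administration. The labelled age is the same for both, and whether it is the age at the first injection or at isolation is not clear from the labels. The age at isolation may therefore go with the administration too, and its part cannot be told apart from that of the injections.

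Megakaryocyte genes that had fallen were nearer to PBS after the third administration. Mfsd2b differed by 3.12 (edgeR adjusted p = 0.017), Gp1bb by 2.35 (0.0408), Treml1 by 2.00 (0.0242) and Itga2b by 1.20 (0.0149), and Selp, which had risen, by -1.11 (0.0184). The highest adjusted p over the alternatives was 0.0343 for Mfsd2b, 0.079 for Gp1bb, 0.051 for Treml1, 0.0317 for Itga2b and 0.0552 for Selp.

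Of 18 erythroid genes in the interaction test, 3 passed, and these lay nearer to PBS after the third administration. The differences were 1.42 for Aqp1 (edgeR adjusted p = 0.0394, at most 0.0698 over the alternatives), -1.33 for Hbb-bs (0.0246, at most 0.163) and -1.24 for Hbb-bt (0.017, at most 0.11). The values of the 2 Hbb genes are not independent. The median log2 fold change of the erythroid list was -0.46 after the first administration and -0.39 after the third.

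Of the HSC genes and receptors, Ly6a differed by -0.77 (edgeR adjusted p = 0.017, at most 0.0424 over the alternatives), Socs2 by -1.18 (0.0486, at most 0.079), Il2rg by -0.46 (0.0325, at most 0.0626), Csf2rb by -1.25 (0.017, at most 0.0506) and the HSC marker Fgd5 by -1.04 (0.0453, at most 0.0674). Csf2rb went from 0.88 after the first administration to -0.39 after the third, and Fgd5 from 0.42 to -0.63. The change of Fgd5 after the first administration did not pass the test (edgeR adjusted p = 0.0616).

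Cdk6 differed by 1.00 (edgeR adjusted p = 0.0149, at most 0.0317 over the alternatives), from -1.02 to -0.03. The MAPK feedback gene Spry1 differed by -1.04 (0.031, at most 0.077), Ndrg1 by 0.98 (0.017, at most 0.0412) and Nkg7 by 0.82 (0.0394, at most 0.0736).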

How the results depend on the processing

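The count of 2827 genes after a single administration lay between 2437 and 3548 under DESeq2, RLE factors, library size alone, other filters, all 21 libraries, and length and GC offsets. It was 2041 with the replicate block and 1711 with the block and length and GC offsets, and between 1563 and 1947 without 1 library. Over the gene lists together, 649 members passed the threshold, 398 with the block and those offsets, and between 391 and 476 without 1 library (fewest without 5-FU replicate 2). The count of 2310 after the third administration was 1509 with the replicate block and between 1231 and 1582 without 1 library (1500 and 1231 without 5-FU replicate 1 or 3, and 1413, 1379 and 1399 without PBS replicate 1, 2 or 3). The 86 genes of the interaction became 693 with DESeq2 and 55 with the replicate block. Whether the replicate numbers pair the libraries is not known. The cause of these differences was not tested, apart from the smaller number of libraries where 1 was left out.

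With library size alone, 41% of the calls after a single administration were higher against 52% with TMM, and after the third 35.6% against 54.2%, with the median log2 fold change of all genes at -0.111 there.

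The balance of higher and lower members turned in 6 lists. Immediate early genes numbered 5, 5 and 4 without 5-FU replicate 1, PBS replicate 1 and PBS replicate 3, and interferon-stimulated genes 5 without 5-FU replicate 3 and 5 without PBS replicate 3. DNA methylation and Polycomb genes numbered 9 with DESeq2 and 9 with all 21 libraries, the BCL2 family 5 with DESeq2, and AMPK and mTOR genes 7 with all 21 libraries. Lysosome genes numbered 7 with DESeq2, 6 with library size alone, 3 without 5-FU replicate 1 and 3 without PBS replicate 2. The Kruppel-like factor share ratio went from 0.99 to 1 without the 10 genes with the most counts. Of single genes shown, the sign of Ccnd2 turned to 0.03 with length and GC offsets, with and without the block, and the log2 fold change of Ccnd3 ranged from -0.01 without 5-FU replicate 2 to 0.09 without 5-FU replicate 3, and that of Cd79b from -0.08 without PBS replicate 3 to 0.04 without PBS replicate 2.

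Genes with few counts in 1 group, such as Klf1 after 5-FU or Etv4 after PBS, carry the wider errors. With 3 libraries a group the exact test of a single value cannot go below 0.1.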
